A study of Mus musculus with 6 samples.

Results

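The Wnt system of mouse embryonic spinal cord was described here across libraries labelled as motor neurons from the cervical and from the thoracic cord. The genes were taken by symbol: all Wnt ligands, Frizzled receptors, Lrp5, Lrp6, Ror1, Ror2, Ryk, the secreted Sfrp and Dkk proteins, Wif1, the R-spondins, Lgr4 to Lgr6, Axin2 and Notum. They numbered 52 of the 56805 genes in the count table, and 38 had enough reads to be tested. Both groups came from embryos at e12.5 that the labels give as control genotype with no treatment. There were 3 cervical and 3 thoracic libraries of ribosomal RNA-depleted total RNA. The sources used here do not give the alleles behind the word control, the way motor neurons were isolated or the number of embryos in a library.

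Wnts are secreted, lipid-modified glycoproteins that bind Frizzled receptors. With Lrp5 or Lrp6 as co-receptor they stabilise beta-catenin, and with Ror or Ryk they act on cell polarity and axon growth. Sfrp proteins and Wif1 bind Wnts outside the cell, most Dkk proteins block Lrp5 and Lrp6, and R-spondins act through Lgr4 to Lgr6 to keep Wnt receptors at the surface. In the embryonic spinal cord, Wnts of the dorsal midline promote growth of dorsal progenitors, and in rodents Wnt4 of the floor plate guides commissural axons along the body axis through Fzd3.

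Libraries summed to 32103071 to 33790634 counts in the cervical group and to 32635514 to 53186131 counts in the thoracic group. All 11 motor neuron markers reported had enough reads to be tested. Slit2, which the floor plate also makes, held 56.2% of their summed level on average in cervical and 56.1% in thoracic libraries. The other 10 (Isl1, Isl2, Mnx1, Lhx3, Lhx4, Chat, Slc18a3, Slc5a7, Prph and Ret) summed to 396 to 808 CPM (read counts scaled to a common library size) in cervical libraries and 517 to 771 CPM in thoracic ones. Markers of spinal interneurons summed to 1895 to 2047 CPM in cervical and 1609 to 1672 CPM in thoracic libraries, so a level cannot be assigned to motor neurons. Of these 17 markers, 4 were called higher and 2 lower in cervical, where 0.191% and 0.35% of all tested genes were. The part of this difference in the Wnt results was not tested. None of the motor neuron markers was called between regions, where 0.542% of all tested genes were. With the replicate number as a block, 3 (Isl1, Ret and Slc18a3) were called lower in cervical, where 1.39% of all tested genes were. In such bulk samples, fewer cells of a type and less RNA per cell cannot be told apart. Nothing says that replicates were separate litters or animals, and a p-value here compares regions with a spread that may be technical.

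Of the 38 tested Wnt genes, Wnt11 was the only one that passed the test between the regions, and it was lower in cervical libraries. The test was edgeR's quasi-likelihood test at a Benjamini-Hochberg adjusted p below 0.05, over 21972 genes, of which 0.542% were called, 0.191% as higher and 0.35% as lower in cervical. Adding the replicate number to the model as a block, which called 1.97% of all genes (0.573% higher and 1.39% lower in cervical), brought in Wnt4, also lower in cervical, and no other Wnt gene. An unadjusted p below 0.05 was found for 5 of the 38, Wnt3, Wnt4, Wnt11, Rspo2 and Rspo3, which is 13.2% against 8.47% of all tested genes. The median log2 fold change, cervical minus thoracic, was -0.03 for the 38 genes and 0.01 for all tested genes. The median size of the fold change on the log2 scale was 0.14 for the 38 genes and 0.13 for all tested genes.

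**Figure D1:**
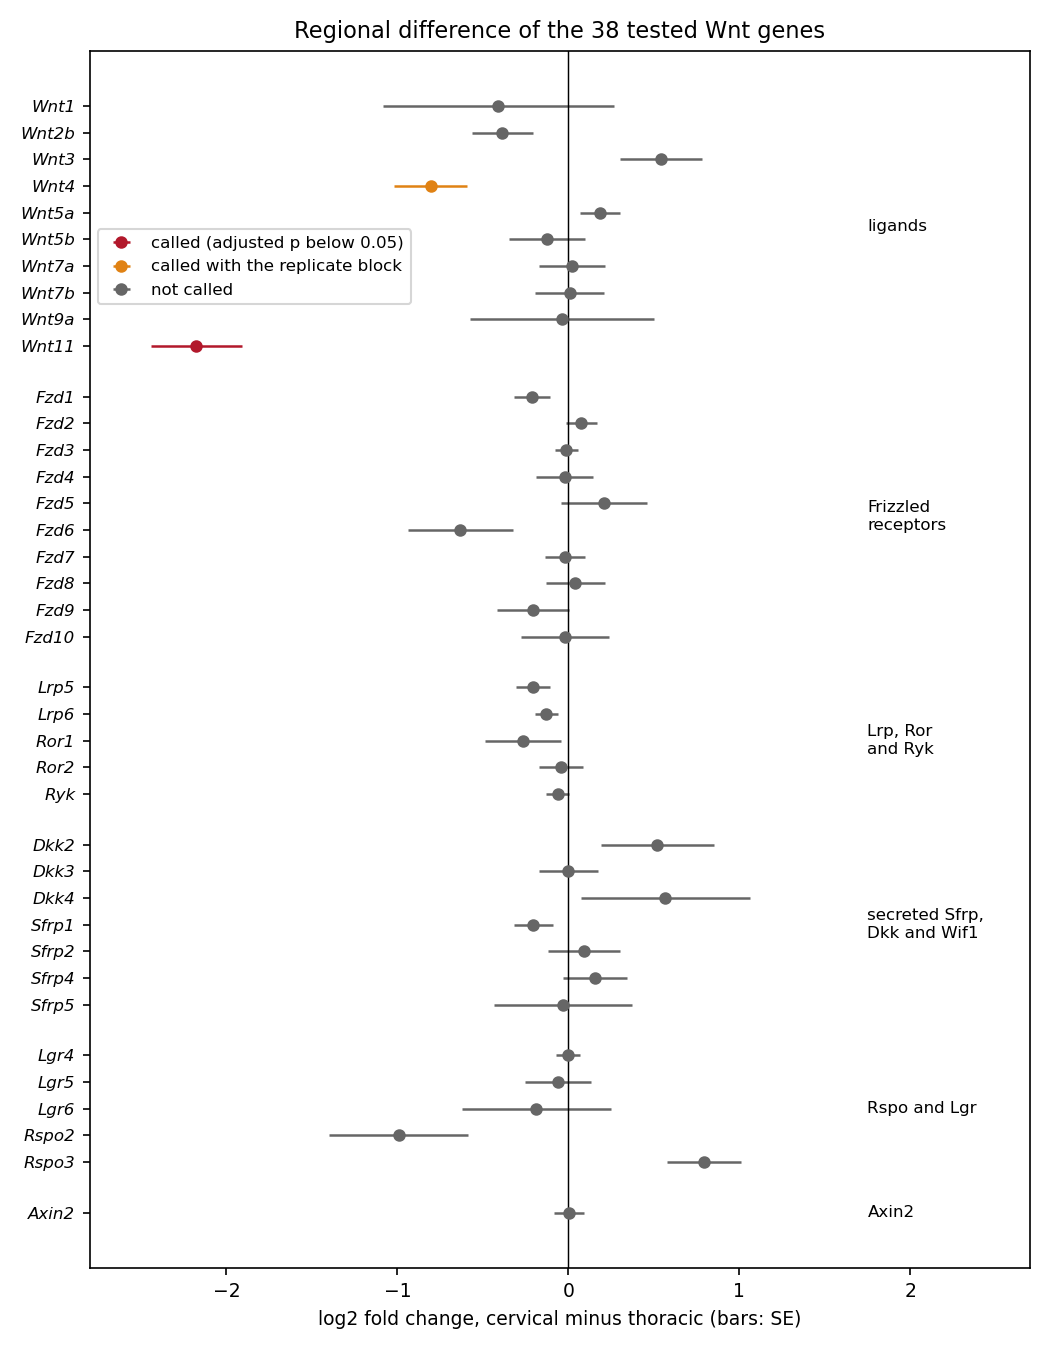
Log2 fold change, cervical minus thoracic, of the 38 tested Wnt genes by role (points, with bars for the standard error from the edgeR fit, 3 libraries per region). Wnt11 lies at -2.18 and Wnt4 at -0.80, while the 10 Frizzled receptors lie between -0.63 and 0.21.

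The start regions of Wnt11 and Wnt4, the ligands called with or without the block, are shown as RefSeq gives them on GRCm38.p6, 250 bases before to 50 bases after an annotated start. That build is not the mm39 of the counts. Capitals mark a TCF/LEF motif (ATCAAAG, the reverse strand of CTTTGAT) and a TATA box (TATAAA), both searched on both strands.

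Wnt11, chr7:98834862-98835161, plus strand: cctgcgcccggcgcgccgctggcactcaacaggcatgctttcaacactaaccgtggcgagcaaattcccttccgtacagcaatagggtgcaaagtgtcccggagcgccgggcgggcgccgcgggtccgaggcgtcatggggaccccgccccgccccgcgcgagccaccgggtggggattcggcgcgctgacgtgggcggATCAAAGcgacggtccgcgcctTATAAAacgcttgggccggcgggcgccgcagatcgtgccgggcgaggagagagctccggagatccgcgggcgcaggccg

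Wnt4, chr4:137277385-137277684, plus strand: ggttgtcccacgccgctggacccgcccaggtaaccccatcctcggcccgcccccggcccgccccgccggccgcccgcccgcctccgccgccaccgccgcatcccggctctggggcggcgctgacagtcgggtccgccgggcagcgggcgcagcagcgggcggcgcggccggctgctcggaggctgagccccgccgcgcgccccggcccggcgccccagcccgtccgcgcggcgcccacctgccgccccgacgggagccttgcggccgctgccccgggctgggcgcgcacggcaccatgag

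In the printed Wnt11 window the TCF/LEF letters lay 51 to 45 bases and the TATA letters 29 to 24 bases before the start. A further Wnt11 window, at chr7:98838595-98838894, held neither. The Wnt4 window also held neither and had a GC content of 84.3%, against 71.3% in the printed Wnt11 window. Of all 32851 such windows, 3.73% held CTTTGAT and 13.6% held TATAAA. Of the 52 Wnt genes 34 were in the table with 37 windows, of which 2 held CTTTGAT and 6 held TATAAA. Homeodomain letters (TAATTA) and Pbx-Hox letters (TGATNNAT), also searched on both strands, were in neither printed window, nor in the further Wnt11 window. They were in 5.29% and 8.85% of all windows, and in 1 Wnt gene window each. A match describes the letters only.

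Wnt11, a ligand known mainly for signalling without beta-catenin, had 0.775, 1.09 and 0.907 CPM in the cervical libraries and 3.08, 4.78 and 4.75 CPM in the thoracic ones. Every thoracic library was above every cervical one, and thoracic replicate 1 was the lowest of its group. The reads behind these values were 25, 37 and 29 in the cervical libraries and 165, 156 and 154 in the thoracic ones. In edgeR the log2 fold change was -2.18 with an SE of 0.26 and an adjusted p of 0.00954, so that Wnt11 was 4.52 times as high in thoracic libraries. The call was lost without cervical replicate 3, where the fold change was -2.16 and the edgeR adjusted p 0.0530. Without each of the other 5 libraries in turn the call stayed, and the highest edgeR adjusted p was 0.0408. Wnt11 lies on chromosome 7 from 98484319 to 98504402 (mm39, plus strand). It shares 364 exonic bases with Gm8398 on the opposite strand, which had no read in any library.

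Wnt4, a floor plate ligand that guides commissural axons in rodents, had 11.97, 22.4 and 20.9 CPM in cervical libraries. In the thoracic libraries it had 25.1, 34.5 and 37.2 CPM. The regions did not overlap, and cervical replicate 1 was the lowest of all 6 libraries. The fold change was -0.80 on the log2 scale (SE 0.21) with an edgeR adjusted p of 0.195, and with the replicate block -0.84 (SE 0.10) with an edgeR adjusted p of 0.000759. Cervical was the lower library under each of the 3 replicate numbers. The gene lies on chromosome 4 from 137004800 to 137027037 (mm39, plus strand).

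Floor plate genes moved with Wnt4. The floor plate genes Shh, Foxa2, Ntn1, Spon1, Foxj1, Ferd3l and Nkx2-9 summed to 419, 871 and 776 CPM in cervical libraries, against 809.6, 1040 and 1134 CPM in thoracic ones. Nkx2-9 was at or near 0 in all libraries. None of the 6 tested was called without the block, and 4 (Shh, Foxa2, Ntn1 and Spon1) were called lower in cervical with it, where 1.39% of all genes were. Wnt4 equalled 2.85, 2.57 and 2.69% of that sum in cervical libraries and 3.10, 3.32 and 3.28% in thoracic ones. Relative to the sum the groups did not overlap either. Ntn1 and Spon1 made up 95.3% of the sum on average in cervical libraries and 93.9% in thoracic ones. These percentages thus compare Wnt4 mainly with Ntn1 and Spon1. The other 5 genes summed to 16.1 to 44.6 CPM in cervical and 53.6 to 69.4 CPM in thoracic libraries. The edgeR log2 fold changes of Shh (-0.99), Foxa2 (-1.16) and Ferd3l (-1.28) were larger in size than that of Wnt4 (-0.80). Those of Ntn1 (-0.41), Spon1 (-0.62) and Foxj1 (-0.28) were smaller. The part of floor plate cells in the Wnt4 difference was not tested.

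V3 interneuron genes were also lower in cervical libraries, as Wnt11 was. Within the cervical group, replicate 1 had the lowest Wnt11 level and the highest sum of V3 genes. Wnt11 had only 25, 37 and 29 reads in the cervical libraries, too few to settle its order within the group. Sim1, Nkx2-2, Uncx and Nkx2-9, markers of that ventral class and its progenitors, summed to 71.2, 54.5 and 54.1 CPM in cervical libraries and to 95.3, 114 and 118 CPM in thoracic ones. Of the 3 tested, Sim1 and Nkx2-2 were called lower in cervical, as 0.35% of all genes were, and with the block Uncx was called lower too. Uncx held 79.0% of the sum on average in cervical libraries and 58.9% in thoracic ones, and had an edgeR log2 fold change of -0.43. That of Sim1 was -2.25, about the size of Wnt11's, and that of Nkx2-2 was -1.37. Wnt11 equalled 1.09, 1.99 and 1.68% of this sum in cervical libraries and 3.23, 4.19 and 4.04% in thoracic ones. Against the floor plate sum it equalled 0.117 to 0.185% in cervical and 0.380 to 0.460% in thoracic libraries. Neither set of percentages overlapped between regions. Against Sim1 alone, a comparison chosen after the values were seen, Wnt11 equalled 8.28, 25.7 and 24.2% in cervical libraries and 17.03, 16.1 and 13.7% in thoracic ones, and the regions overlapped. Against Nkx2-2 alone it equalled 11.7 to 15.4% in cervical and 22.2 to 24.2% in thoracic libraries, without overlap. The part of these cells in the Wnt11 result was not tested.

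**Figure D2:**
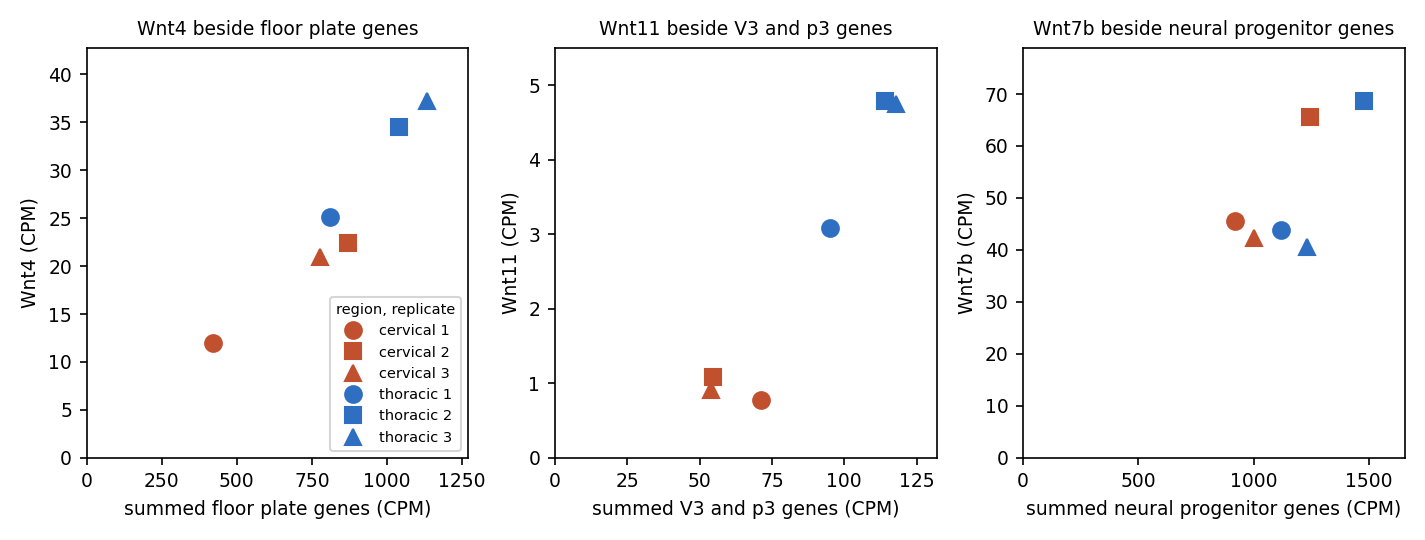
CPM of Wnt4, Wnt11 and Wnt7b (vertical axes) against the summed CPM of floor plate, V3 and p3, and neural progenitor genes (horizontal axes), 1 point per library. Wnt4 ranges from 11.97 CPM at a floor plate sum of 419 to 37.2 CPM at a sum of 1134, and Wnt11 is above 3 CPM in each thoracic library and at most 1.09 CPM in each cervical one.

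Levels of different genes were compared as RPKM, CPM divided by the exonic length in kilobases. The 19 ligands summed to 26.4 ± 5.24 RPKM in cervical libraries and 30.1 ± 4.93 RPKM in thoracic ones (SD, n = 3 each), with overlap between the regions. Wnt7b, a ligand of beta-catenin signalling, held the largest share of that sum in all libraries but thoracic replicate 3, where Wnt4 held 31.4% and Wnt7b 29.2%. Its share averaged 39.5 ± 3.98% in cervical and 34.1 ± 4.99% in thoracic libraries. Wnt7a held 21.5 ± 1.61% in cervical and 18.7 ± 0.886% in thoracic libraries. Wnt4 held 16.5 ± 3.63% in cervical and 25.7 ± 4.94% in thoracic libraries. Wnt5a, the main ligand of Ror receptors, held 9.10 ± 0.903% in cervical and 7.05 ± 1.36% in thoracic libraries. Wnt4 thus ranked below Wnt7a in each cervical library and above it in each thoracic one. Wnt11 held 0.849 ± 0.0364% in cervical and 3.38 ± 0.635% in thoracic libraries.

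**Figure D3:**
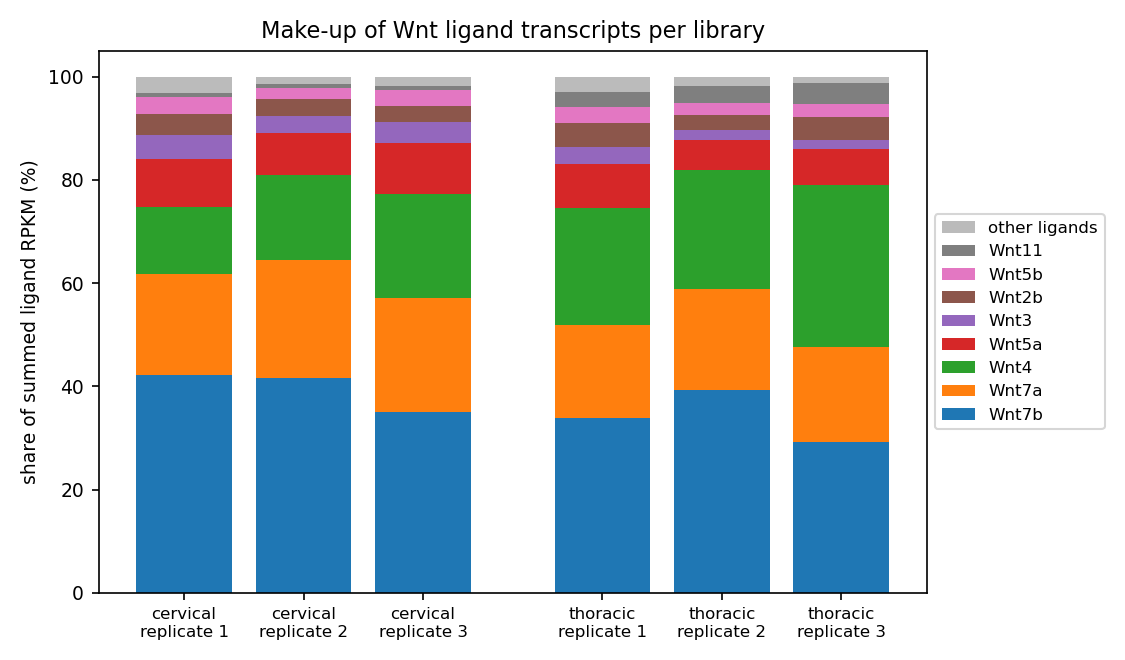
Share of the summed RPKM of all 19 Wnt ligands held by each ligand (%, stacked bars, 1 bar per library, cervical left and thoracic right). Wnt7b, Wnt7a, Wnt4 and Wnt5a make up most of each bar, and the Wnt4 segment averages 16.5% in cervical and 25.7% in thoracic libraries.

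Wnt7b had 45.6, 65.6 and 42.3 CPM in cervical libraries and 43.8, 68.6 and 40.5 CPM in thoracic ones (edgeR log2 fold change 0.01 with an SE of 0.20, adjusted p = 0.998). The regions overlapped fully, and the sign of the fold change depended on which library was left out. Wnt7a, its close relative, had 13.9, 23.3 and 17.3 CPM in cervical libraries and 15.0, 22.3 and 16.5 CPM in thoracic ones. Wnt5a had 16.1, 20.4 and 19.1 CPM in cervical libraries and 17.5, 16.1 and 15.3 CPM in thoracic ones (log2 fold change 0.19 with an SE of 0.12). It shares 358 exonic bases with Gm2670 on the opposite strand, whose mean count was 60.5 against 631 for Wnt5a.

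Among low ligands, Wnt3 and Wnt2b did not overlap between regions, a choice made after their values were seen. Wnt3, a neuronal ligand of beta-catenin signalling, had 3.16, 3.26 and 3.07 CPM in cervical libraries and 2.72, 2.18 and 1.54 CPM in thoracic ones (edgeR log2 fold change 0.54 with an SE of 0.24, adjusted p = 0.567). Wnt2b had 3.75, 4.37 and 3.35 CPM in cervical libraries and 5.17, 4.51 and 5.31 CPM in thoracic ones (edgeR log2 fold change -0.39 with an SE of 0.18, adjusted p = 0.604). Neither passed the test with or without the block. In all, 7 of the 38 tested genes had no overlap, 2 higher in cervical (Wnt3 and Rspo3) and 5 lower (Wnt2b, Wnt4, Wnt11, Lrp5 and Rspo2). Of all tested genes 13.7% had none, 6.25% higher and 7.5% lower in cervical. Wnt5b averaged 1.89 ± 0.107 CPM in cervical libraries and 2.06 ± 0.158 CPM in thoracic ones.

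The dorsal midline ligand Wnt1 was near the limit of testing, at 0.281 ± 0.205 CPM in cervical libraries and 0.363 ± 0.223 CPM in thoracic ones, and so was Wnt9a at 0.267 ± 0.105 CPM in cervical libraries and 0.264 ± 0.112 CPM in thoracic ones. The other 9 ligands (Wnt2, Wnt3a, Wnt6, Wnt8a, Wnt8b, Wnt9b, Wnt10a, Wnt10b and Wnt16) had too few reads to be tested, as did Dkk1, Wif1, Rspo1, Rspo4 and Notum. No library held more than 17 reads or 0.429 CPM of any of these 14 genes. In 9 of them at least 1 library had a count of 0, which allows a level of up to 0.0560 to 0.0939 CPM depending on the library (3 counts). Such limits cover counting error only.

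**Figure D4:**
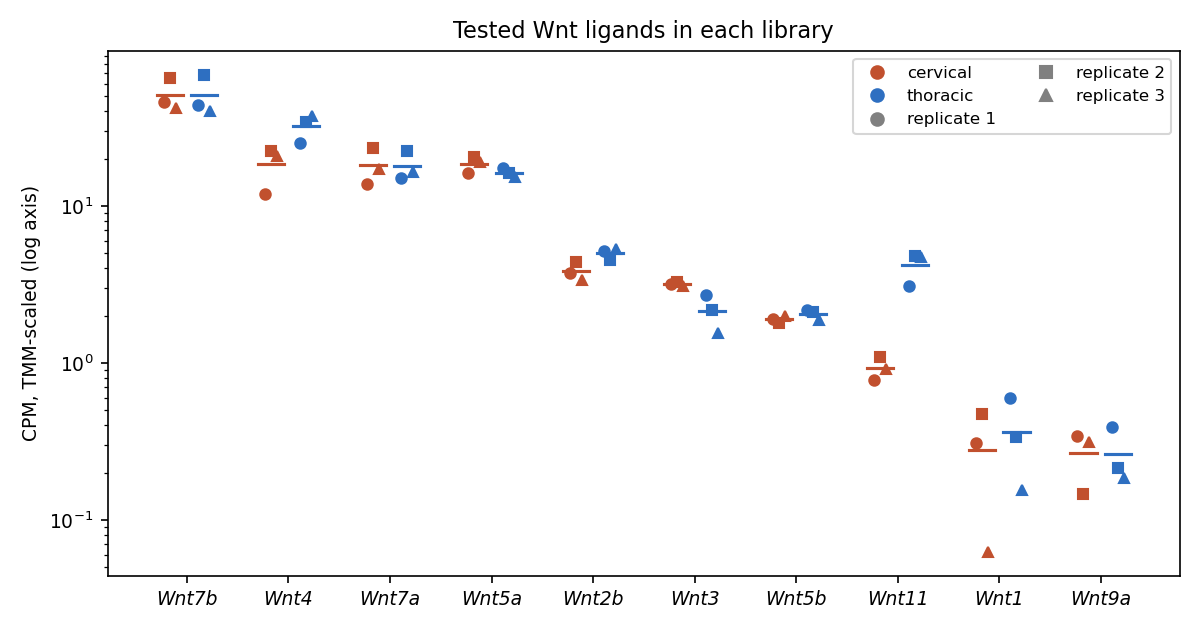
CPM of the 10 tested Wnt ligands in each library on a log axis, ordered by RPKM (cervical left of thoracic, horizontal bars for the means, symbol shapes for the replicate number). Wnt11 and Wnt4 are lower in every cervical library than in every thoracic one, and Wnt7b and Wnt7a are highest in replicate 2 of both regions.

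All 10 Frizzled receptors were tested and none was called with or without the block. They summed to 99.8 ± 3.65 RPKM in cervical libraries and 101.8 ± 5.55 RPKM in thoracic ones. Fzd3, the Frizzled required for growth and guidance of many axon tracts in mouse, held 53.5 ± 1.67% of that sum in cervical and 52.9 ± 4.61% in thoracic libraries. It had 663, 695 and 693 CPM in cervical libraries and 640.4, 685 and 743 CPM in thoracic ones. The cervical values lay within the thoracic range (edgeR log2 fold change -0.01 with an SE of 0.07, adjusted p = 0.988), and leaving out single libraries moved the fold change between -0.07 and 0.05. Fzd7 followed at 13.02 ± 1.68 RPKM in cervical libraries and 13.2 ± 2.004 RPKM in thoracic ones. It had 54.2, 67.8 and 55.0 CPM in cervical libraries against 57.0, 70.0 and 52.5 CPM in thoracic ones. The values overlapped, and its fold change was -0.02 (log2, SE 0.12).

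Fzd2 averaged 11.4 ± 0.451 RPKM in cervical libraries and 10.8 ± 1.24 RPKM in thoracic ones, and Fzd1 averaged 9.90 ± 0.788 RPKM in cervical libraries and 11.5 ± 1.58 RPKM in thoracic ones. Fzd7 was above both in each library, though in thoracic libraries the ranges of the 3 receptors overlapped. Fzd1 had 44.0, 42.8 and 37.8 CPM in cervical libraries and 46.1, 55.6 and 42.8 CPM in thoracic ones, with overlap (edgeR log2 fold change -0.21 with an SE of 0.10, adjusted p = 0.647). Fzd8, Fzd10, Fzd9 and Fzd4 averaged between 1.39 and 3.57 RPKM in cervical and between 1.41 and 3.47 RPKM in thoracic libraries. Fzd5 and Fzd6 averaged below 1 RPKM in both regions. Fzd6, which acts in planar polarity of skin and hair, had the largest fold change of the family, with 1.43, 1.29 and 2.60 CPM in cervical libraries and 2.20, 3.497 and 2.56 CPM in thoracic ones. The values overlapped (edgeR log2 fold change -0.63 with an SE of 0.31, adjusted p = 0.647).

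None of the co-receptors and alternative receptors was called either. Lrp6 was the more abundant of both Lrp co-receptors, at 14.5 ± 1.21 RPKM in cervical libraries and 15.9 ± 0.689 RPKM in thoracic ones, while Lrp5 had 1.53 ± 0.0323 RPKM in cervical libraries and 1.77 ± 0.0967 RPKM in thoracic ones. Lrp6 had 218, 189.9 and 188 CPM in cervical libraries and 218, 207 and 226 CPM in thoracic ones (edgeR log2 fold change -0.13 with an SE of 0.07, adjusted p = 0.704). Lrp5 had 14.5, 15.1 and 15.1 CPM in cervical libraries and 16.2, 17.2 and 18.1 CPM in thoracic ones, without overlap (edgeR log2 fold change -0.21 with an SE of 0.10, adjusted p = 0.640). Ryk, a Wnt receptor that repels growing axons, had 62.6, 59.9 and 59.7 CPM in cervical libraries and 64.8, 65.3 and 60.1 CPM in thoracic ones (log2 fold change -0.06 with an SE of 0.07). Ror2 averaged 11.9 ± 0.629 CPM in cervical libraries and 12.3 ± 1.69 CPM in thoracic ones, and Ror1 averaged 3.10 ± 0.575 CPM in cervical libraries and 3.74 ± 0.735 CPM in thoracic ones.

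Secreted inhibitors showed no called difference between the regions. Sfrp2 and Sfrp1, made by neural progenitors, were the most abundant at 23.4 ± 4.82 and 10.4 ± 0.803 RPKM in cervical libraries, and at 22.0 ± 7.71 and 11.96 ± 2.06 RPKM in thoracic ones. Sfrp2 had 43.2, 62.3 and 45.7 CPM in cervical libraries and 36.3, 66.4 and 39.3 CPM in thoracic ones (edgeR log2 fold change 0.09 with an SE of 0.21, adjusted p = 0.961). Sfrp1 had 42.3, 49.2 and 44.6 CPM in cervical libraries and 48.2, 62.6 and 46.0 CPM in thoracic ones (edgeR log2 fold change -0.20 with an SE of 0.11, adjusted p = 0.724). Dkk3, which differs from the other Dkk proteins in not blocking Lrp6, averaged 14.7 ± 4.04 CPM in cervical libraries and 14.7 ± 0.486 CPM in thoracic ones. Dkk2 had 0.806, 1.26 and 1.47 CPM in cervical libraries and 0.803, 0.797 and 0.864 CPM in thoracic ones, with overlap (edgeR log2 fold change 0.52 with an SE of 0.33, adjusted p = 0.776). Sfrp4 averaged 4.47 ± 0.702 CPM in cervical libraries and 4.01 ± 0.290 CPM in thoracic ones, while Sfrp5 and Dkk4 stayed below 1 CPM on average in both.

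R-spondins lay at low levels beside an abundant receptor. Lgr4 had 74.5, 69.2 and 66.4 CPM in cervical libraries and 68.9, 66.9 and 74.4 CPM in thoracic ones (edgeR adjusted p = 0.998), and the sign of its fold change, near 0, turned with the scaling. Rspo3 had 4.34, 4.11 and 5.29 CPM in cervical libraries and 2.03, 3.10 and 2.84 CPM in thoracic ones. Each cervical library was above each thoracic one, with a log2 fold change of 0.79 (SE 0.22), but the edgeR adjusted p was 0.210, or 0.0902 with the block. Rspo2 had 0.403, 0.323 and 0.501 CPM in cervical libraries and 1.06, 0.583 and 0.772 CPM in thoracic ones (edgeR log2 fold change -0.99 with an SE of 0.41, adjusted p = 0.517). Both R-spondins had no overlap, in opposite directions, and neither passed the test. Rspo3 shares 404 exonic bases with Gm48159 on the opposite strand, whose mean count was 11.7 against 125 for Rspo3. Lgr5 averaged 8.88 ± 2.28 CPM in cervical libraries and 9.28 ± 1.26 CPM in thoracic ones, and Lgr6 averaged 0.885 ± 0.415 CPM in cervical libraries and 1.02 ± 0.345 CPM in thoracic ones.

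Axin2, a direct target and inhibitor of beta-catenin signalling that is widely used as its readout, had 33.0, 30.3 and 34.1 CPM in cervical libraries and 33.7, 33.6 and 29.8 CPM in thoracic ones. The ranges overlapped (edgeR log2 fold change 0.01 with an SE of 0.09, adjusted p = 0.996), and the sign turned under limma-voom and in 3 of the 6 fits without a library. Notum, a secreted enzyme that removes the lipid from Wnts, had at most 0.429 CPM in any library and was not tested.

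Some Wnt genes differed between replicate numbers. An F test of the replicate terms in the blocked edgeR fit, chosen after the data were seen, called 4 of the 38, Wnt4, Wnt7b, Sfrp2 and Fzd10, where it called 0.865% of all tested genes. Wnt7a missed the threshold at an edgeR adjusted p of 0.0599. The edgeR adjusted p was 0.00257 for Wnt7b, 0.00673 for Sfrp2, 0.0293 for Wnt4 and 0.0385 for Fzd10. For Wnt7b and Sfrp2 replicate 2 was the highest in both regions, as it was for 12 of the 38 genes against 13.4% of all tested genes. Replicate 1 was the highest in both for 2 of the 38 and replicate 3 for 3, against 2715 and 2628 of the 21972 tested genes.

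Fzd10, a receptor of the dorsal cord, was among those highest in replicate 1, with 16.1, 7.98 and 9.54 CPM in cervical libraries and 15.0, 9.57 and 9.26 CPM in thoracic ones. Genes of roof plate and dorsal progenitors summed to 83.0, 51.2 and 77.4 CPM in cervical libraries and 92.9, 69.5 and 58.6 CPM in thoracic ones, also highest in replicate 1 of each region. Of the 9 tested, 1 was called lower in cervical without the block and 1 with it, where 0.35% and 1.39% of all tested genes were. The 10 neural progenitor markers (such as Sox2, Pax6 and Nes) summed to 917, 1241 and 1001 CPM in cervical libraries and 1118, 1477 and 1233 CPM in thoracic ones. That sum was highest in replicate 2 of each region, as Wnt7b and Sfrp2 were. Between regions the sum was lower in cervical under each replicate number, while Wnt7b and Sfrp2 had edgeR log2 fold changes of 0.01 and 0.09. Sfrp2 equalled 4.71, 5.02 and 4.56% of the sum in cervical libraries and 3.24, 4.496 and 3.19% in thoracic ones, without overlap. Wnt7b equalled 4.97, 5.28 and 4.23% in cervical and 3.92, 4.65 and 3.28% in thoracic libraries, with overlap. Motor neuron markers, Slit2 included, had their lowest sum in replicate 2 of each region, at 1018 CPM in cervical libraries and 1195 CPM in thoracic ones. The part of cell mixture in the replicate pattern was not tested.

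**Figure D5:**
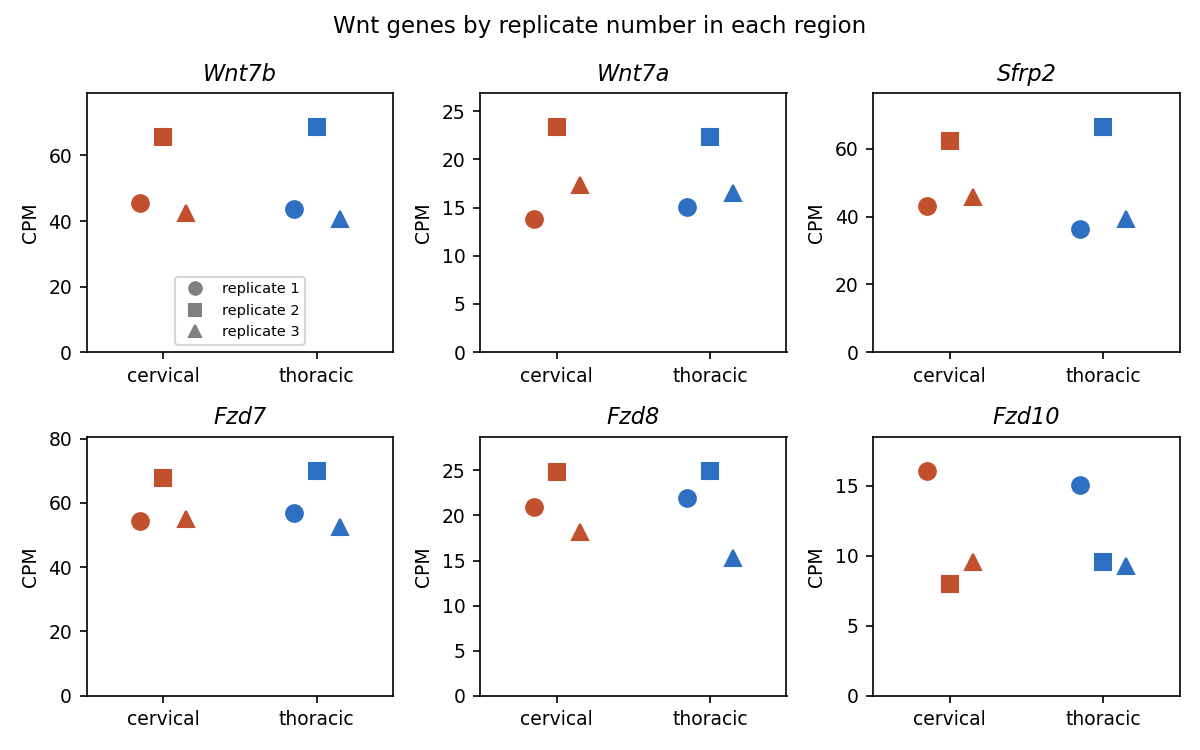
CPM of 6 Wnt genes in each library (cervical left, thoracic right, symbol shapes for the replicate number). Replicate 2 is the highest of both regions for Wnt7b, Wnt7a, Sfrp2, Fzd7 and Fzd8, and replicate 1 for Fzd10, at 16.1 CPM in cervical libraries and 15.0 CPM in thoracic ones. Wnt7a, Fzd7 and Fzd8 did not pass the F test of the replicate terms (edgeR adjusted p of 0.0599, 0.131 and 0.131). Wnt4 passed it but is not shown, and was highest in replicate 2 in cervical and replicate 3 in thoracic libraries.

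Other genes of the pathway, 82 tested in 4 lists, held none called without the block and 6 called with it, all lower in cervical, where 1.39% of all tested genes were. Of the 82, 16 lay lower and 4 higher in cervical without overlap, where 7.5% and 6.25% of all tested genes did. Among 19 planar polarity genes, which orient cells and growth cones, 2 were called with the block (1.39% of all tested genes were called lower) and 6 had no overlap (7.5% of all tested genes), all lower in cervical. Celsr1, an adhesion receptor of the polarity core, had 62.8, 78.5 and 61.8 CPM in cervical libraries and 88.3, 110.6 and 94.5 CPM in thoracic ones. In edgeR the log2 fold change was -0.53 with an SE of 0.11 (adjusted p = 0.0679, and 0.000823 with the block). Prickle1, a cytoplasmic core protein, had 26.0, 17.6 and 19.6 CPM in cervical libraries and 30.5, 26.7 and 34.9 CPM in thoracic ones (edgeR log2 fold change -0.54 with an SE of 0.15, adjusted p = 0.208, and 0.0209 with the block). Vangl1, a membrane core protein, had 8.68, 10.6 and 9.07 CPM in cervical libraries and 14.6, 12.3 and 14.5 CPM in thoracic ones without passing either fit (edgeR adjusted p = 0.129, and 0.0657 with the block). The 19 genes had a median log2 fold change of -0.10, with 4 above and 15 below 0, where all tested genes had 11447 above and 10525 below. The sum of neural progenitor markers, given above, was also lower in cervical under each replicate number, and with the block Nes, Vim and Mki67 among them were called lower, with edgeR log2 fold changes of -0.45, -0.48 and -0.31 without it. The part of progenitors and of the floor plate in the polarity genes was not tested. Their more abundant relatives Vangl2, Celsr2 and Celsr3, chosen after their values were seen, had log2 fold changes of -0.03, -0.04 and 0.01.

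Of 21 genes of Wnt secretion and the cell surface, 3 were called with the block, all lower in cervical, where 1.39% of all tested genes were. Without overlap, 6 of the 21 lay lower and 3 higher in cervical, where 7.5% and 6.25% of all tested genes did. Cthrc1, a secreted cofactor of the polarity arm, had 3.13, 3.20 and 4.47 CPM in cervical libraries and 6.51, 5.89 and 8.18 CPM in thoracic ones (edgeR log2 fold change -0.93 with an SE of 0.20, adjusted p = 0.0969, and 0.0124 with the block). Gpc3, a glypican that carries heparan sulphate, had 20.6, 19.8 and 24.4 CPM in cervical libraries and 27.0, 31.3 and 28.9 CPM in thoracic ones (edgeR log2 fold change -0.43, adjusted p = 0.154, and 0.0459 with the block). Apcdd1, a membrane inhibitor of Wnt signalling, had 29.0, 41.5 and 35.4 CPM in cervical libraries and 37.3, 58.2 and 44.5 CPM in thoracic ones. Its values overlapped between regions (edgeR log2 fold change -0.40, adjusted p = 0.508, and 0.0167 with the block). Mesenchyme genes, which include collagens, summed to 22.5, 71.9 and 223 CPM in cervical libraries and 137, 160 and 225 CPM in thoracic ones, and their part in Cthrc1 and Gpc3 was not tested.

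The 12 tested feedback genes held 1 called with the block, lower in cervical, where 1.39% of all tested genes were. Tnfrsf19, a membrane receptor and Wnt target, had 6.94, 5.46 and 7.29 CPM in cervical libraries and 10.2, 9.85 and 10.3 CPM in thoracic ones (edgeR log2 fold change -0.63 with an SE of 0.15, adjusted p = 0.125, and 0.0464 with the block). Nkd1, a feedback inhibitor, had 12.6, 13.3 and 12.7 CPM in cervical libraries and 15.6, 17.3 and 18.1 CPM in thoracic ones, and was called in neither fit (edgeR log2 fold change -0.40, adjusted p = 0.197, and 0.113 with the block). None of 30 genes of the beta-catenin arm was called in either fit. Those with the smallest p were Bcl9l, a beta-catenin co-activator (edgeR log2 fold change -0.18, adjusted p = 0.332), and Tnks, which promotes Axin turnover (-0.19, edgeR adjusted p = 0.369).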

How the data were processed

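The authors deposited a table of whole-number read counts per gene with mm39 coordinates and summed exon lengths. Per the submitters' processing notes, the tools were FastQC 0.11.9, STAR 2.7.5b and featureCounts 2.0.1. The sources used here do not give the annotation release or the strand setting. Per the labels' protocols, a stranded kit was used on 10 to 20 ng of RNA, with 15 cycles of PCR. Reads of antisense partners cannot be told apart without the strand setting. Exons of 9 Wnt genes overlap such a partner, whose mean count was at most 60.5.

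Genes were kept by edgeR's default filter (edgeR 4.0.16, R 4.3.3, minimum count 10), which left 21972 genes and dropped 34833 (0.117% of all reads). After TMM scaling (factors 0.989 to 1.01) genes were tested with the quasi-likelihood test, region as the only term, and p-values were adjusted by Benjamini-Hochberg over all tested genes. The common biological coefficient of variation was 15.4%. CPM and RPKM are TMM-scaled, and RPKM (CPM over exonic kilobases) was computed with the deposited exon lengths. Log2 fold changes use edgeR's prior count of 0.125. A standard error is the fold change, without its sign, over the square root of F. Alternatives were median-of-ratios scaling, library totals, no filter, a mean CPM of at least 1, DESeq2 1.42.0, limma-voom (limma 3.58.1), a replicate block and leaving out each library.

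Replicate numbers come from the sample titles. A library's deviation from its region's mean was compared across regions. Its correlation was 0.163, 0.160 and 0.195 for libraries of the same number, and -0.179 to 0.00773 for different numbers. Deviations sum to 0 within a region, so low values for different numbers follow from higher ones for the same number. The numbers were taken to pair the libraries on the same-number correlations alone, which were weak. The main test, with region as the only term, leaves this pairing out. Only the fit with the replicate block takes the pairing into account. Within a region, pairs of libraries had a chi-square per degree of freedom of 10.1 to 16.2, so no pair was taken for a library deposited again. This does not show that libraries came from separate animals.

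The Wnt genes and the lists of pathway and marker genes were chosen with earlier results of these data known. Values per library are given for Wnt genes called with or without the block and, in each role, the 2 with the highest RPKM and the 2 with the smallest p. Pathway genes are named where called with or without the block, plus the 2 with the smallest p per list. Genes named outside this rule are Wnt7a, Wnt5a, Wnt3, Wnt2b and Fzd10 with values per library, others of the Wnt genes with averages, and Vangl2, Celsr2 and Celsr3. The test of the replicate terms was chosen after seeing the data. Some listed markers are not reported here, and their values are in no sum.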

Additional observations from a re-analysis of the deposited data

How the results depend on the processing

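Over all genes, 119 were called, 42 higher and 77 lower in cervical libraries. The counts were 747, 232 and 515 with no filter, 408, 126 and 282 with DESeq2, and 432, 126 and 306 with the replicate block. Leaving out single libraries gave 9 to 159 calls, 1 to 48 higher and 8 to 111 lower. Wnt genes called numbered 1, and 2 with the block, 3 with no filter (Wnt4, Wnt11 and Rspo3), and 0 to 1 when a library was left out, with the 0 coming without cervical replicate 3. Pathway genes called numbered 0, and 8 with no filter, 6 with DESeq2, 6 with the block, and 0 to 1 when a library was left out (Prickle1 without cervical replicate 1, Celsr1 without cervical replicate 2). The cause of these shifts was not tested. Scaling by median of ratios or library totals, a mean CPM of at least 1 and limma-voom kept 1 Wnt gene and 0 pathway genes called.

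Wnt11 stayed between -2.37 and -2.06 (log2) without single libraries, with edgeR adjusted p of 0.00428 to 0.0530. Wnt4 stayed between -0.97 and -0.57 (0.129 to 0.479), and was called with no filter at -0.81 and with the block at -0.84. Rspo3 ranged from 0.62 to 0.92 and was called with no filter at 0.79. Fold changes near 0 turned sign without single libraries, with ranges of -0.21 to 0.28 for Wnt7b, -0.066 to 0.045 for Fzd3, -0.13 to 0.11 for Fzd7, -0.091 to 0.42 for Sfrp2, -0.047 to 0.044 for Lgr4 and -0.051 to 0.051 for Axin2. Lgr4 also turned to 0.0013 with library totals, 0.00071 at a mean CPM of at least 1 and 0.00056 with limma-voom, and Axin2 to -0.0012 with limma-voom. Of 219 such fits of named Wnt genes, 194 kept their direction and their side of the threshold. Depth limits Wnt11 most in cervical libraries, with 25 to 37 reads each.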
